A study of Mus musculus with 6 samples.

Results

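The genes described here are 10 genes of sterol sensing, lipid efflux and lipid storage: Nr1h2 and Nr1h3, which encode the liver X receptors (LXR) beta and alpha, Abca1, Abcg1, Apoe and Mylip, which LXRs induce, and Pparg, Cd36, Plin2 and Lpl, which take part in fatty acid uptake and storage. They were chosen by symbol, and each matched a single Ensembl ID among the 55536 IDs of the deposited tables through the mouse annotation GENCODE M21. RNA was sequenced from RAW264.7, an established mouse macrophage line that forms osteoclast-like cells when given RANKL, the cytokine that drives osteoclast formation. All samples had received RANKL at 50 ng/mL; 3 libraries came from RANKL alone and 3 from RANKL with etelcalcetide at 4 µM, a calcimimetic peptide, that is, an activator of the receptor for extracellular calcium. The study's design text gives 5 days of treatment, while the labels of the samples state 5 days for replicate 1, 6 for replicate 2 and 7 for replicate 3 in each group. The comparison asks how these genes differ when etelcalcetide is added to RANKL, and no culture without RANKL was analysed here.

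LXRs are nuclear receptors that bind oxidised sterols and, paired with a retinoid X receptor (RXR), switch on genes that move cholesterol out of the cell. In macrophages, ABCA1 passes cholesterol and phospholipid to lipid-poor apolipoproteins, ABCG1 passes cholesterol to larger lipoproteins, and apolipoprotein E is a secreted acceptor. MYLIP, also called IDOL, is a ubiquitin ligase that marks lipoprotein receptors for breakdown. PPAR gamma is a second lipid-sensing receptor, known in macrophages for inducing the fatty acid receptor CD36. Perilipin 2 coats lipid droplets, and lipoprotein lipase is a secreted enzyme that frees fatty acids from triglyceride.

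The deposited FPKM values (fragments scaled by exon length in kilobases and by library depth) corresponded to 13742913 to 16264432 reads per library, so 1 read on a gene of 1 kb was worth 0.0615 to 0.0728 FPKM. Of 10 macrophage markers 9 were high enough to test; Mertk was not, with 10 reads in the RANKL libraries and 17 in the treated ones. The target of the drug, Casr, had 0 reads in each library. Whether the replicates came from separate cultures is stated nowhere in the labels. The p-values thus refer to the spread between the deposited samples, and that spread may be technical. If the day labels hold, it also includes the days of treatment, which differ between the replicates of a group.

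Of the 10 genes, 3 rose with etelcalcetide (Nr1h2, Abca1 and Lpl), 3 fell (Abcg1, Apoe and Cd36), 3 did not pass the test (Nr1h3, Mylip and Plin2) and Pparg was too low to test. The test was limma on log2(FPKM + 0.1) over 11120 genes, the threshold being an adjusted p (Benjamini-Hochberg) of 0.05, and a fold change on this scale understates the change of low genes. Across all genes tested 53.0% were called, 26.0% higher and 27.0% lower, so 6 called of 9 tested genes was near that share. With library totals alone as the scaling, 61.0% of the called genes were higher, against 49.1% with the main scaling. In deposited values 6 of the 9 genes had no overlap between groups, against 61.2% of all genes tested. The median log2 fold change of the 9 genes was -0.15, beside -0.01 for all genes tested, and each of the 9 met the minimum level in all 6 libraries. A fold change of at least 2 was reached by 1 of the 9, Apoe, and by 7.14% of all genes tested.

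**Figure D1:**
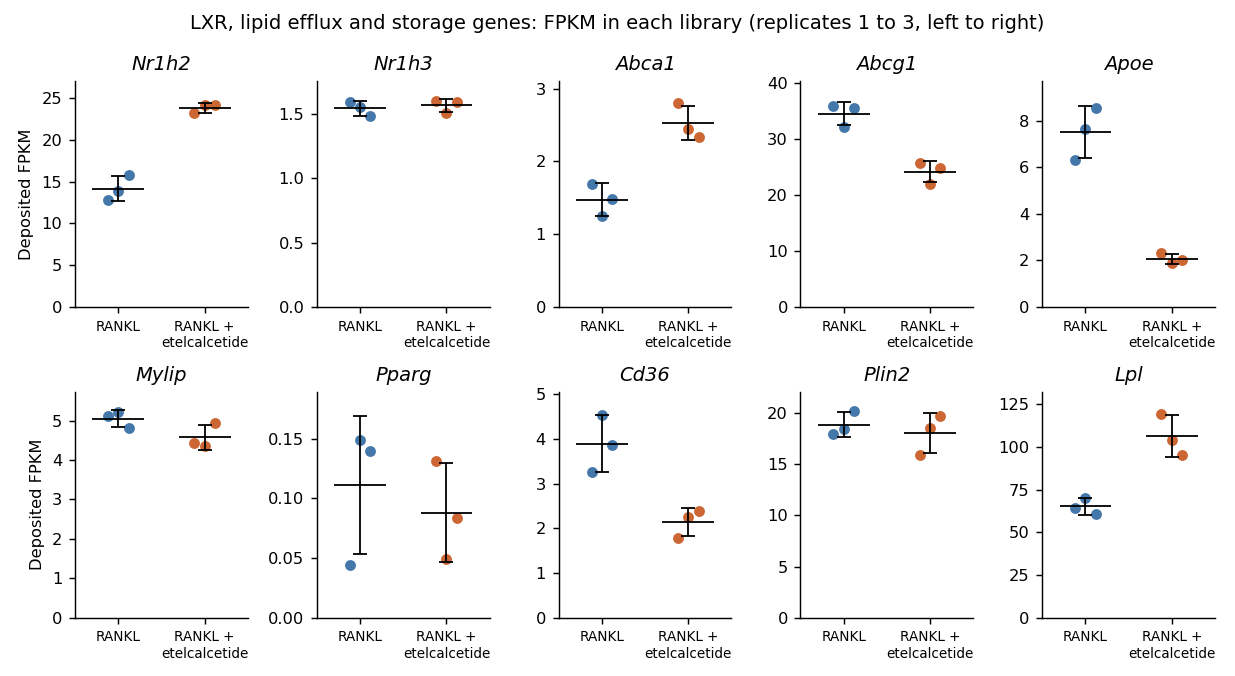
Deposited FPKM (vertical axis, from 0) of the 10 genes in each library, RANKL in blue and RANKL with etelcalcetide in orange, with bars for the mean and SD of 3 libraries. The groups stand apart for Nr1h2, Abca1, Abcg1, Apoe, Cd36 and Lpl and overlap for Nr1h3, Mylip, Pparg and Plin2.

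Of the 2 LXR genes Nr1h2 rose and Nr1h3 did not pass the test. Nr1h2 (ENSMUSG00000060601, chromosome 7, 44549616 to 44553951) encodes LXR beta, the form found in most tissues. It stood at 12.8, 13.9 and 15.8 FPKM in RANKL replicates 1, 2 and 3, and at 23.2, 24.2 and 24.2 FPKM in etelcalcetide replicates 1, 2 and 3. All 3 treated libraries lay above all 3 RANKL libraries, and the treated values lay closer together. Nr1h2 rose 1.59-fold (95% confidence interval 1.41 to 1.80, log2 fold change 0.67, SE 0.0781, limma adjusted p = 0.000145). The annotation holds a processed pseudogene, Nr1h2-ps, to which 0 reads were assigned. In bulk RNA such as this, a difference in the number of cells of a type and a difference in RNA per cell cannot be told apart.

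Nr1h3 (ENSMUSG00000002108, chromosome 2, 91184061 to 91202834) encodes LXR alpha, the form that is itself induced by LXRs in human macrophages and is abundant in liver and fat. Its level was 1.59, 1.55 and 1.48 FPKM with RANKL and 1.60, 1.50 and 1.59 FPKM with etelcalcetide, from 52 to 65 reads per library. The groups overlapped. The log2 fold change was -0.05 (limma adjusted p = 0.725), with an interval of 0.802-fold to 1.16-fold, and its sign turned with library totals alone (0.02). A stretch of 1.35% of its exon length is shared with the transcript Gm13783. The ratio of Nr1h3 to Nr1h2 within a library needs no scaling between libraries; it was 0.124, 0.111 and 0.0935 with RANKL and 0.0690, 0.0621 and 0.0657 with etelcalcetide. Every treated ratio was below every RANKL ratio, a 1.66-fold lower geometric mean. In an exact two-sided permutation test of 3 against 3 libraries this gave p = 0.1, the smallest the design allows, and 0.1 after adjustment over the 5 ratios examined.

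Among partners and coregulators of LXR the log2 fold changes ran from -0.53 to 0.31. Of 16 listed, 15 were tested: 3 rose, 4 fell and 8 did not pass, with a median log2 fold change of -0.02 (all genes -0.01). The called genes made up 46.7% of those tested, against 53.0% of all genes tested. Rxra, an RXR partner, stood at 1.40 ± 0.114 and 1.30 ± 0.0577 FPKM (mean ± SD, n = 3 per group, limma adjusted p = 0.289), and Rxrb, the more abundant RXR here, at 25.3 ± 3.02 and 28.5 ± 1.57 FPKM (limma adjusted p = 0.367). Rxrg had 0 reads. Tbl1x and Tbl1xr1, related subunits of the NCoR corepressor complex, fell by 0.53 and 0.44 on the log2 scale (limma adjusted p = 0.000124 and 0.00157). Hdac3, the histone deacetylase of that complex, rose from 17.1 ± 0.774 to 22.4 ± 0.688 FPKM (limma adjusted p = 0.00196). The number called in this list fell from 7 to 4 without RANKL replicate 1, without etelcalcetide replicate 2 and with the replicate number as a block.

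The transporters Abca1 and Abcg1 moved in opposite directions. Abca1 (ENSMUSG00000015243, chromosome 4, 53030787 to 53159895) stood at 1.69, 1.25 and 1.48 FPKM with RANKL and at 2.80, 2.45 and 2.34 FPKM with etelcalcetide. The lowest treated library was above the highest RANKL library. Abca1 rose 1.59-fold (interval 1.28 to 1.98, log2 fold change 0.67, SE 0.140, limma adjusted p = 0.00368), on 696 reads in the RANKL group and 1190 in the treated group. Abcg1 (ENSMUSG00000024030, chromosome 17, 31057675 to 31117988) was far more abundant, at 35.9, 32.1 and 35.6 FPKM with RANKL and 25.7, 22.0 and 24.9 FPKM with etelcalcetide. All treated values of Abcg1 were below all RANKL values. It fell by 0.59 on the log2 scale, 1.51-fold (SE 0.0689, limma adjusted p = 0.000148).

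The level of Abcg1 relative to Abca1, both per length, was 21.2, 25.8 and 24.0 with RANKL and 9.21, 8.98 and 10.7 with etelcalcetide. The geometric mean of this ratio was 2.46-fold lower in the treated libraries, and the groups did not overlap (exact two-sided permutation p = 0.1, 0.1 after adjustment). Abcg1 stayed the more abundant of the pair in each of the 6 libraries.

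The promoter of Abca1 is shown because LXR is known to act there through a direct repeat of the hexamer AGGTCA spaced by 4 bases, called DR4 (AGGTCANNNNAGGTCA). The 250 bases before its start site were read from RefSeq, build GRCm38.p6, chr4:53159896-53160145, minus strand, with capitals marking CACGTG (an E-box) and the DR4 match.
Abca1: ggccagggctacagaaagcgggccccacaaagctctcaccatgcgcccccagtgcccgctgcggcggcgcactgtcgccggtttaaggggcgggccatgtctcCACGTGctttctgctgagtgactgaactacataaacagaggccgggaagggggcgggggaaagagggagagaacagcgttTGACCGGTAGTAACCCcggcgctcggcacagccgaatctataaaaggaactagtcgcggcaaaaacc
The DR4 match lies on the strand opposite to the gene, from base -67 to -52 before the start site, and has 3 mismatches over the 12 fixed letters. Windows of 300 bases, from 250 before to 50 after a start, were searched on both strands. DR4 with up to 2 mismatches was found in 3.02% of the 32851 RefSeq windows and in none of those of the 8 genes with a window. With up to 3 mismatches, a limit added after the data were seen, it was found in 21.9% of all windows, and among the 8 genes in Abca1 and in a single window of Pparg. The E-box, from -147 to -142, reads the same on both strands; 7.15% of windows hold one. TATAAA on the gene's strand, a motif added after the data were seen, lies from -29 to -24 and occurs in 8.32% of windows. Among the 8 genes it was also found in Mylip (-32 to -27) and in a single window of Apoe (-96 to -91). Such a match is a description of the letters. Abcg1 and Lpl had no entry.

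Apoe (ENSMUSG00000002985, chromosome 7, 19696109 to 19699188) had the largest change of the 9 tested genes. It stood at 6.31, 7.66 and 8.56 FPKM with RANKL and at 2.30, 1.91 and 2.01 FPKM with etelcalcetide. Every treated library was below every RANKL library, from 732 reads in the RANKL libraries and 202 in the treated ones. Apoe fell by 1.88 on the log2 scale (SE 0.126, limma adjusted p = 6.22e-06), 3.68-fold, with an interval for the treated level of 0.223 to 0.331 of the RANKL level. With a pseudocount of 1 FPKM the log2 fold change was -1.52.

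Other genes that LXR is known to induce in macrophages moved both ways. Of 20 listed, 14 were tested: 6 rose, 3 fell and 5 did not pass (median 0.12, all genes -0.01). That is 64.3% called, beside 53.0% of all genes tested. The list includes Ccr7, which met the minimum level in the treated libraries only and so had to differ to be tested. Ccr7, a chemokine receptor, stood at 0.136 ± 0.106 FPKM with RANKL and rose to 16.1 ± 3.25 FPKM (limma adjusted p = 1.35e-06). Rnf145, a membrane-bound ubiquitin ligase, rose from 13.1 ± 0.355 to 26.2 ± 1.24 FPKM (log2 fold change 0.91, limma adjusted p = 4.11e-06). Pltp, the phospholipid transfer protein, fell from 18.7 ± 3.35 to 6.34 ± 0.694 FPKM (log2 fold change -1.61, limma adjusted p = 2.36e-05). Of the exon length of Pltp, 19.3% is shared with Ctsa on the other strand, and the sources used here do not give the strandedness of the libraries. Srebf1, the LXR-induced factor of fatty acid synthesis, stood at 18.5, 19.0 and 22.4 FPKM with RANKL and 21.7, 19.5 and 18.8 FPKM with etelcalcetide, so the groups overlapped (limma adjusted p = 0.486).

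Of 16 further efflux transporters and acceptors, only 7 were tested: 3 rose, 2 fell and 2 did not pass (median 0.12). Called were 71.4% of the 7, against 53.0% of all genes tested. Clu, the secreted lipid-binding chaperone clusterin, rose from 0.134 ± 0.0499 to 2.08 ± 0.442 FPKM (limma adjusted p = 1.30e-05) and met the minimum level in the treated libraries only. It therefore had to differ to be tested. Abca7, a close relative of Abca1, rose from 7.39 ± 0.116 to 10.6 ± 0.411 FPKM (limma adjusted p = 0.000544). Stard4, a cytosolic sterol carrier, fell from 13.4 ± 0.886 to 8.45 ± 0.343 FPKM (limma adjusted p = 5.28e-05). The number called fell from 5 to 3 without RANKL replicate 2 or etelcalcetide replicate 3, and to 2 without etelcalcetide replicate 2.

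**Figure D2:**
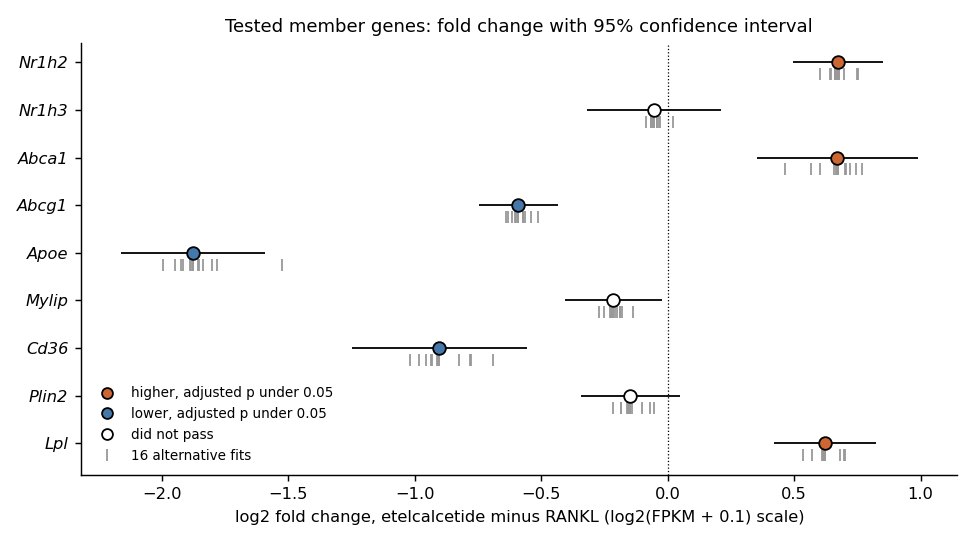
Log2 fold change (horizontal axis, etelcalcetide minus RANKL) of the 9 tested genes, with the 95% confidence interval as a line; filled points passed the test, and grey ticks below each point are the 16 alternative fits. The ticks keep the sign of the main value for 8 genes, while 1 tick of Nr1h3 lies at 0.02, above 0.

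Mylip (ENSMUSG00000038175, chromosome 13, 45389742 to 45412022) lay close to the threshold. It stood at 5.11, 5.22 and 4.81 FPKM with RANKL and at 4.43, 4.37 and 4.94 FPKM with etelcalcetide. Etelcalcetide replicate 3 lay within the RANKL range of deposited values; after TMM scaling the groups did not overlap. The log2 fold change was -0.22 (limma adjusted p = 0.0572), with an interval of 0.754-fold to 0.983-fold before adjustment for the number of genes. It passed without RANKL replicate 3 (limma adjusted p = 0.0413) and with a single prior variance for all genes (0.0425), and over the 16 alternatives the adjusted p ran from 0.0413 to 0.212. The ratio of Abca1 to Mylip, a pair that LXR is known to induce together, was 0.332, 0.239 and 0.308 with RANKL and 0.631, 0.561 and 0.473 with etelcalcetide, a 1.90-fold higher geometric mean without overlap (exact two-sided permutation p = 0.1, 0.1 after adjustment).

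Lrp8, a lipoprotein receptor that MYLIP marks for breakdown and that is named here after its values were seen, fell from 4.73 ± 0.345 to 2.53 ± 0.587 FPKM (limma adjusted p = 0.000826). Vldlr, another substrate, had 0 reads. Of 19 lipoprotein, scavenger and fatty acid receptors listed, 14 were tested: 6 rose, 5 fell and 3 did not pass (median 0.02). In this list 78.6% of the tested genes were called, against 53.0% of all genes tested. Slc27a1, a fatty acid transport protein, fell from 28.0 ± 2.31 to 10.8 ± 0.251 FPKM (limma adjusted p = 7.72e-07). Msr1, the class A scavenger receptor, dropped from 14.7 ± 1.69 to 7.52 ± 0.278 FPKM (limma adjusted p = 3.15e-05). Lrp10, a lipoprotein receptor, rose from 16.6 ± 1.83 to 42.7 ± 0.435 FPKM (limma adjusted p = 3.14e-06), and 10.6% of its exons by length overlap Gm10366 on the other strand.

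Pparg (ENSMUSG00000000440, chromosome 6, 115360951 to 115490399) was close to the detection limit in all libraries. It had 2, 7 and 6 reads in the RANKL libraries and 6, 2 and 4 in the treated libraries, or 0.0444 to 0.149 and 0.0493 to 0.132 FPKM. The depth-adjusted ratio of treated to RANKL reads was 0.804, with a 95% exact interval of 0.344 to 1.84 for counting error only. The interval holds both falls and rises, so these counts give no direction.

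Cd36 (ENSMUSG00000002944, chromosome 5, 17781690 to 17888801), the fatty acid and oxidised-lipoprotein receptor, fell. It stood at 3.27, 4.54 and 3.85 FPKM with RANKL and at 1.79, 2.25 and 2.40 FPKM with etelcalcetide. The highest treated value was below the lowest RANKL value. The log2 fold change was -0.90 (SE 0.152, limma adjusted p = 0.00115), a 1.87-fold fall, with an interval for the treated level of 0.421 to 0.679 of the RANKL level.

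PPARs bind a direct repeat of AGGTCA spaced by a single base, called DR1 (AGGTCANAGGTCA). With up to 2 mismatches a DR1 was found on either strand in 3.86% of the 32851 windows and, among the 8 genes with a window, in those of Cd36 and Plin2. These 2 promoters are shown because Cd36 fell and Plin2 did not pass while both hold such a match. The 250 bases before each start come from RefSeq, GRCm38.p6, both on the minus strand, Cd36 at chr5:17835897-17836146 and Plin2 at chr4:86670060-86670309, with the match in capitals. The Cd36 start used is an internal one of the annotated gene.
Cd36: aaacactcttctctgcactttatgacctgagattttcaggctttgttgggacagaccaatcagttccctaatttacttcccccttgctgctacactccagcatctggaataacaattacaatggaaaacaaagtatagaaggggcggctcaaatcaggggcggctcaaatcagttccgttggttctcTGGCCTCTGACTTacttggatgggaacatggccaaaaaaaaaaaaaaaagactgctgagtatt
Plin2: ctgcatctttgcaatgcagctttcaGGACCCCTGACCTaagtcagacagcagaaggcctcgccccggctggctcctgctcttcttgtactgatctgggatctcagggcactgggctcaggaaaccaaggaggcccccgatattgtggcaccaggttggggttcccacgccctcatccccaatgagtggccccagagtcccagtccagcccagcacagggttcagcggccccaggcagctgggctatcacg
The match lies from -63 to -51 in Cd36 and from -225 to -213 in Plin2, on the strand opposite to the gene in both, with 2 mismatches each. Plin2 also holds a CACGTG from -4 to 2, counted with the start site as 1, across the end of the stretch shown. The DR1 letters overlap no DR4 match in these genes.

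The wider PPAR genes moved both ways. Of 10 receptors, coactivators and upstream factors 7 were tested, of which 3 rose, 3 fell and 1, Cebpb, did not pass (median 0.28, all genes -0.01). Thus 85.7% of the 7 were called, against 53.0% of all genes tested. Ppard, the PPAR form that was well detected, rose from 2.87 ± 0.255 to 5.59 ± 0.464 FPKM (log2 fold change 0.86, limma adjusted p = 0.000144). Cebpa and Cebpd, factors that act upstream of Pparg in fat cells, rose from 15.4 ± 1.35 to 27.5 ± 1.43 FPKM and from 2.83 ± 0.231 to 4.64 ± 0.0745 FPKM (limma adjusted p = 4.61e-05 and 0.000636). Of the exon length of Cebpd, 15.0% is shared with Spidr on the other strand. The 3 that fell, named after their values were seen, were Ppargc1b, Klf4 and Med14. Their log2 fold changes were -0.35, -0.42 and -0.21 (limma adjusted p = 0.00641, 0.0129 and 0.0376).

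Of 20 other genes that PPAR gamma or delta are known to induce, 13 were tested: 6 rose, 2 fell and 5 did not pass (median 0.21). That is 61.5% called, beside 53.0% of all genes tested. Fabp5, a fatty acid binding protein, fell from 9.04 ± 0.852 to 2.50 ± 0.284 FPKM (log2 fold change -1.89, limma adjusted p = 3.20e-06). Cpt1a, which brings fatty acids into mitochondria, rose from 5.49 ± 0.149 to 15.3 ± 1.83 FPKM (log2 fold change 1.38, limma adjusted p = 4.97e-06). Olr1, a receptor of oxidised LDL, rose from 0.344 ± 0.0282 to 1.95 ± 0.133 FPKM (limma adjusted p = 9.01e-06) and met the minimum level in the treated libraries only. It therefore had to differ to be tested. To Fabp5l2, a processed pseudogene of Fabp5 in the annotation, 0 reads were assigned.

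Plin2 (ENSMUSG00000028494, chromosome 4, 86648386 to 86670060), the droplet coat protein, stood at 17.9, 18.4 and 20.2 FPKM with RANKL and at 15.9, 18.5 and 19.7 FPKM with etelcalcetide. The groups overlapped. The log2 fold change was -0.15 (limma adjusted p = 0.178), with an interval of 0.788-fold to 1.03-fold. The ratio of Cd36 to Plin2 within a library was 0.182, 0.246 and 0.191 with RANKL and 0.113, 0.122 and 0.122 with etelcalcetide. That was a 1.73-fold lower geometric mean without overlap (exact two-sided permutation p = 0.1, 0.1 after adjustment).

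Of 22 storage enzymes and other droplet proteins listed, 13 were tested: 4 rose, 4 fell and 5 did not pass, a share called near the 53.0% of all genes tested (median 0.03, all genes -0.01). Of the 22, Plin1, Plin4 and Plin5, the other perilipins of fat, heart and muscle, had 0 reads. Lpin2, the phosphatidate phosphatase lipin 2, was lower with etelcalcetide, at 8.31 ± 0.111 against 16.8 ± 0.850 FPKM (limma adjusted p = 2.56e-06). Acsl3, a fatty acyl-CoA synthetase of droplets, fell from 13.2 ± 1.05 to 6.88 ± 0.759 FPKM (limma adjusted p = 3.93e-05). Bscl2, which encodes seipin, a protein of droplet formation, rose from 3.72 ± 0.272 to 7.29 ± 0.600 FPKM (limma adjusted p = 7.08e-05), with 10.8% of its exon length in other genes.

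Of 14 genes of lipolysis, cholesteryl ester hydrolysis and lysosomal sterol export, 11 were tested: 5 rose, 2 fell and 4 did not pass (median 0.16). Called were 63.6% of the 11, against 53.0% of all genes tested. Pnpla2, the triglyceride lipase ATGL, rose from 20.8 ± 1.89 to 40.9 ± 2.40 FPKM (log2 fold change 0.90, limma adjusted p = 1.85e-05). Faf2, a droplet-associated factor of protein degradation, rose from 9.76 ± 0.195 to 12.9 ± 0.725 FPKM (limma adjusted p = 0.00297). Nceh1, a cholesteryl ester hydrolase of macrophages, fell from 6.43 ± 0.199 to 5.10 ± 0.106 FPKM (limma adjusted p = 0.00153). The number called fell from 7 to 4 without RANKL replicate 2.

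Lpl (ENSMUSG00000015568, chromosome 8, 68880491 to 68907448) was the most abundant of the 10 genes, with a mean level above that of 95.4% of genes tested. It stood at 64.3, 70.2 and 60.8 FPKM with RANKL and at 119, 104 and 95.3 FPKM with etelcalcetide. Each treated library was above each RANKL library. Lpl rose 1.54-fold (interval 1.34 to 1.77, log2 fold change 0.62, SE 0.0895, limma adjusted p = 0.000496), on 31220 and 50483 reads. The ratio of Lpl to Plin2 was 3.59, 3.81 and 3.01 with RANKL and 7.53, 5.60 and 4.84 with etelcalcetide, a 1.71-fold higher geometric mean without overlap (exact two-sided permutation p = 0.1, 0.1 after adjustment).

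Of 16 genes listed, which are other lipases and factors that fold, anchor, activate or inhibit lipoprotein lipase, 7 were tested. Of these 3 rose, 0 fell and 4 did not pass (median 0.20). The share called was 42.9%, against 53.0% of all genes tested. Sel1l, an adaptor that lipoprotein lipase needs to leave the endoplasmic reticulum, rose from 18.8 ± 0.589 to 28.1 ± 1.18 FPKM (limma adjusted p = 0.000139). Lmf2, a relative of the lipase maturation factor Lmf1, rose from 10.4 ± 0.249 to 13.0 ± 0.477 FPKM (limma adjusted p = 0.00829). Lipa, the lysosomal acid lipase, rose from 109 ± 2.69 to 138 ± 3.89 FPKM (limma adjusted p = 0.00161). Gpihbp1, which anchors the enzyme on capillary endothelium, had 0 reads.

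**Figure D3:**
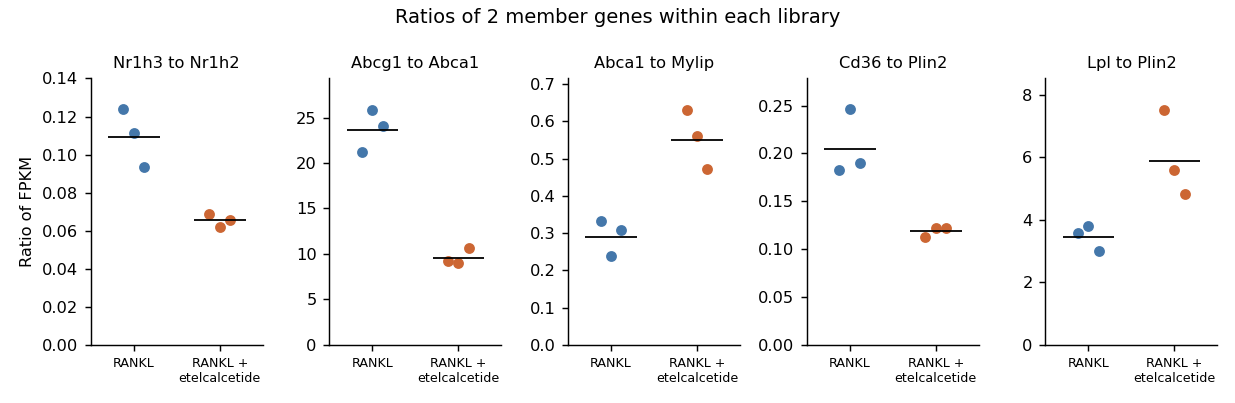
Ratio of the FPKM of 2 genes within each library (vertical axes from 0, unitless), RANKL in blue and RANKL with etelcalcetide in orange, bars at the geometric mean of 3 libraries. In all 5 ratios the groups stand apart, and the Abcg1 to Abca1 ratio goes from 23.6 to 9.59. Each ratio includes a gene that was called on its own, so the ratios restate those calls. The share of other gene pairs that stand apart was not computed.

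The order of the levels, per length, shifted with these changes. With RANKL the means ran from Lpl (65.1 FPKM) through Abcg1 (34.6), Plin2 (18.9), Nr1h2 (14.2), Apoe (7.51), Mylip (5.05), Cd36 (3.89), Nr1h3 (1.54) and Abca1 (1.47) to Pparg (0.111 FPKM). Of neighbours in that order, the values of Nr1h3 and Abca1 overlapped. With etelcalcetide the order was Lpl (106 FPKM), Abcg1 (24.2), Nr1h2 (23.9), Plin2 (18.0), Mylip (4.58), Abca1 (2.53), Cd36 (2.15), Apoe (2.07), Nr1h3 (1.56) and Pparg (0.0881 FPKM). Here Abcg1 overlapped with Nr1h2, Abca1 with Cd36 and Cd36 with Apoe. Apoe went from place 5 to place 8 and Abca1 from place 9 to place 6.

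**Figure D4:**
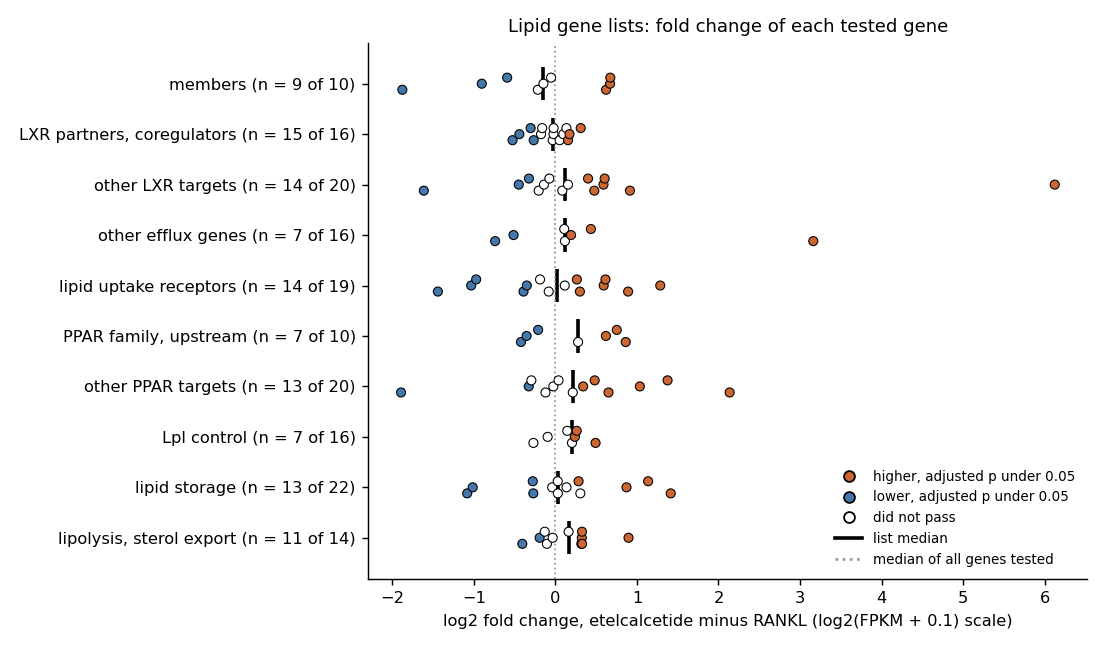
Log2 fold change (horizontal axis) of each tested gene of the 10 genes and of 9 lists of related lipid genes, with the list median as a black bar and the median of all genes tested as a dotted line at -0.01. Each list but that of Lpl control, with 3 called, holds genes that passed in both directions. The share called ran from 42.9% (Lpl control) to 85.7% (PPAR family), against 53.0% of all genes tested. The point at 6.13 is Ccr7.

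Markers of cell state moved with the same groups. Of 10 osteoclast markers 9 were tested, and 6 fell, 0 rose and 3 did not pass; their summed level was 393 to 539 FPKM in the RANKL libraries and 206 to 219 FPKM in the treated libraries, with no marker at 0 reads in all libraries. Ctsk, the osteoclast collagenase, fell from 94.5 ± 23.1 to 0.191 ± 0.0570 FPKM (limma adjusted p = 2.93e-08); it, Atp6v0d2 and Oscar met the minimum level in the RANKL libraries only. Dcstamp, an osteoclast marker named after its values were seen, did not pass, at 20.7 ± 3.09 and 21.7 ± 0.819 FPKM (limma adjusted p = 0.995). Of 10 macrophage markers 6 rose, 0 fell and 3 did not pass, with sums of 2835 to 3003 and 3309 to 3485 FPKM. In both marker lists 66.7% of the tested genes were called, against 53.0% of all genes tested. The osteoclast share holds Ctsk, Atp6v0d2 and Oscar, which had to differ to be tested, so no conclusion is drawn from it. The part of these markers in the changes of the 10 lipid genes was not tested. Of 10 adipocyte markers 6 had 0 reads in all libraries, Adipoq among them, and only Lipe was high enough to test. The sum of the 10 was 3.81 to 4.69 and 5.19 to 5.67 FPKM; its part was not tested. Of the markers of hepatocytes, of fibroblasts and endothelium, and of lymphocytes, 8 each, 0 were tested; their sums reached at most 0.687, 0.766 and 0.301 FPKM. The fibroblast and endothelium sum was 0.507 to 0.766 FPKM with RANKL and 0.0435 to 0.114 FPKM with etelcalcetide, carried by the endothelial and leukocyte gene Pecam1, named after its values were seen, with 153 reads in the RANKL libraries and 12 in the treated ones. Each of the other 7 markers had at most 9 reads per group; the part of this list was not tested.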

How the data were processed

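Total RNA of 6 RAW264.7 samples was sequenced, and groups and replicate numbers were read from the sample titles. The authors deposited a table of FPKM per library. Per the submitters' processing notes, tools included HISAT2 2.1.0, Trimmomatic 0.38, DESeq2 1.22.1 and featureCounts 1.6.0 (roles not stated); the notes name a human build, but all 55536 IDs matched mouse GENCODE M21 (GRCm38), from which coordinates come. FPKM times exon length gave whole reads for 100% of values above 0 (tolerance 0.01 reads).

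FPKM were divided by TMM factors (trims of 30% and 5%) and log2(FPKM + 0.1) was fitted by group with limma 3.58.1 in R 4.3.3, with a trended prior variance, for genes with at least 0.5 FPKM and 10 reads in 3 libraries. The fit was also run on simulated data with far fewer changed genes than were called here, balanced between rises and falls. That run cannot show how the fit behaves when most tested genes are called. Printed FPKM are the deposited values, before TMM. Intervals are at 95% and unadjusted. Ratios were compared by exact permutation over libraries, and each includes a gene that was called on its own. Alternatives covered scaling, pseudocount, filter, variance model, voom, replicate block and each library left out.

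Named genes are the 10 members, Rxra, Rxrb, Srebf1 and, from each of 9 lists, the 3 with the smallest adjusted p. Others are said to be chosen later, or are markers or the drug target. Outside that rule, list genes with 0 reads and Cebpb, which did not pass, are also named. The rule also covered a gene that is not reported here. Members and lists were chosen with earlier results of these data known. Same-numbered libraries did not deviate together: their deviations from group means correlated across genes at 0.0744, -0.0188 and -0.0299 for numbers 1, 2 and 3, so the numbers were not taken as pairs. The sources used here do not give whether poly(A) RNA was selected.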

Additional observations from a re-analysis of the deposited data

How the results depend on the processing

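Over the 16 alternatives the 6 called genes kept their direction and stayed past the threshold: Nr1h2, Abca1 and Lpl higher, Abcg1, Apoe and Cd36 lower. The log2 fold change ran from 0.46 to 0.77 for Abca1 and from -2.00 to -1.52 for Apoe. Mylip passed with a single prior variance (-0.22) and without RANKL replicate 3, with a leave-one-out range of -0.27 to -0.19. Nr1h3 changed sign with library totals alone (0.021), and the share of called genes that were higher was then 61.0%; the cause was not tested. With the replicate block no call among the 9 genes changed, 4 LXR partners were called, and 5709 genes were called in all against 5894. Not every library correlated best with its own number. Leaving out a library gave 4 to 8 LXR partners, 2 to 5 efflux genes and 4 to 7 lipolysis genes called, on fewer samples. All 5 ratios kept their direction without each library, with 0.1 FPKM added and in same-numbered pairs. With 3 libraries a group, no exact test of a ratio reaches 0.05, and Pparg, at 2 to 7 reads a library, gives no usable comparison.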

Other observations

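Some genes of these lists lay below the minimum level and were left out of the test; 3 are named here after their reads were seen. Arl4c, a small GTPase that LXR is known to induce, had 3, 2 and 10 reads with RANKL and 34, 48 and 47 with etelcalcetide, a depth-adjusted ratio of 8.64 (95% exact interval 5.05 to 15.9, counting error only). Abca9, a relative of Abca1 in the ABCA family, had 5, 4 and 2 reads with RANKL and 48, 71 and 63 with etelcalcetide, a ratio of 16.6 (9.08 to 33.9). Apod, a secreted lipid-binding apolipoprotein, had 7, 11 and 10 reads with RANKL and 0, 1 and 0 with etelcalcetide, a ratio of 0.0359 (0.000878 to 0.217). The groups did not overlap for these 3 genes, and no p is given for them. Other untested genes of the lists are also named after their values were seen. Deposited values of Abcg4, Apoa2 and Lipg did not overlap either, on few reads. Abcg4 had 2, 0 and 0 reads with RANKL and 4, 3 and 9 with etelcalcetide. Apoa2 had 3, 2 and 1 reads with RANKL and 4, 3 and 6 with etelcalcetide, so its reads met at 3. For Lipg the reads were 7, 14 and 7 with RANKL and 2, 1 and 2 with etelcalcetide. Deposited values of Abca5, Abcg2, Lcat and Mertk overlapped, as did those of further untested list genes not named here. The share of untested genes without overlap was not computed.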
